A study of Rattus norvegicus with 24 samples.

Results

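The microRNAs (miRNAs) rno-miR-146a and rno-miR-146b were followed in peripheral blood mononuclear cells (PBMC) of female Wistar rats, across all 12 groups of a study of collagen-induced arthritis. They were chosen by name: the rows of the array that carry exactly these names and are not control spots, which gave 2 of the 677 rat miRNAs on the array. Their values played no part in that rule, but earlier results of these data were known when the members were chosen. Both were detected on all 24 arrays, and both belong to the 210 miRNAs detected on at least 3 arrays, over which all tests were made. The opposite strands of the same hairpins, miR-146a* and miR-146b*, have their own entries and were detected on 0 of 24 arrays.

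Each group held 2 arrays, hybridised with RNA from 2 different blood samples. Arthritis (CIA, RA in the labels) was raised by immunisation with bovine type II collagen, and healthy animals (NOCIA, NORA in the labels) were not immunised. Blood was taken before therapy from CIA and NOCIA animals. At 1 hour and at 34 days after the start of therapy it was taken from NOCIA animals and from 4 arms of CIA animals. The MS arm (AP in the labels) received mechanical stimulation with a subcutaneous needle, the MTX arm peritoneal methotrexate and the PLA arm peritoneal saline. The ANE arm was anaesthetised with isoflurane in place of ether for blood sampling and had no other therapy, so the anaesthetic differs from that of the other arms. Every animal was killed when its blood was drawn, so the 3 times are different animals, and all animals were shaved. Ages are not given in the labels. The labels of NOCIA at 34 days contradict themselves in 1 line, which gives 1 hour, and the time in their titles was taken.

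miR-146a and miR-146b are products of separate genes with the same seed, the stretch near the 5' end that chooses target mRNAs. In myeloid and lymphoid cells the transcription factor NF-kB raises transcription of the miR-146a gene after Toll-like or interleukin-1 receptor signalling. Mature miR-146 then represses TRAF6 and IRAK1, adaptor proteins that carry the signal from those receptors to NF-kB, which closes a negative feedback loop. miR-146a is also known as a brake on inflammatory responses of T cells and monocytes. None of these proteins was measured here.

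The mature sequences are shown because they show where the pair differs; the array's probe sequences were not read here. They were taken from RefSeq (build GRCr8), and both array names were matched to the 5p strand because the starred strands have entries of their own. Capitals mark the seed at bases 2 to 8:

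rno-miR-146a: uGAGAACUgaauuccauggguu

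rno-miR-146b: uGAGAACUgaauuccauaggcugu

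The first 17 bases were identical, the seed included. Counted from 1 at the 5' end of miR-146a, the substitutions from miR-146a to miR-146b were G18A and U21C, so 20 of the 22 positions compared were the same. miR-146a has 22 bases and miR-146b has 24, the 2 more lying at its 3' end. Of the 724 mature entries in the RefSeq table, 2 carried the seed GAGAACU, and they were these 2. The genes lie on different chromosomes of GRCr8. The mature miR-146a is at chr10:28350053-28350074 on the minus strand, in the gene Mir146a (gene ID 100314241), inside the span of the lncRNA gene LOC134480673. The mature miR-146b is at chr1:255144874-255144897 on the plus strand, in the gene Mir146b (gene ID 100314121), inside the span of the protein-coding gene C1h10orf95. Nfkb2, which encodes an NF-kB subunit, ends 30211 bases before Mir146b begins in that annotation. Exon or intron was not assigned here.

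Because both share most of their length, each could in principle bind the other's probes. Each miRNA was read by 2 probes of 10 spots, and 480 of 480 spots of each were well above background over the arrays. The 2 probes of miR-146a correlated with r = 0.996 over 24 arrays and those of miR-146b with r = 0.973. No spot was saturated. The error that the scanner software lists for the summed intensity was 7.58% to 7.74% of the value for miR-146a and 7.36% to 8.57% for miR-146b. Cross-hybridisation was not tested.

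The levels below are total spot intensities scaled to the 75th percentile of the 132 miRNAs detected on all arrays and put on a log2 scale, so a step of 1 is a doubling. Which of the 2 miRNAs was more abundant was not judged, since they come from different probes, and the difference between them within an array is used only to compare arrays. A difference was called at a limma p under 0.05 after Benjamini-Hochberg adjustment over the 210 miRNAs. The arrays lay on 3 slides of 8, and each group lay on 1 slide. Of the 17 comparisons, 9 lie within a slide. The other 8 compare every 1-hour group, and MS, MTX and PLA at 34 days, with CIA or NOCIA before therapy. In these 8 slide and group cannot be told apart. Between the dimmest and the brightest array, the intensity summed over detected miRNAs spanned 137544 to 519917. Replicate 1 of MS at 34 days (519917) and replicate 1 of MS at 1 hour (371061) were the brightest, against 305171 and 186549 in their partners. Each MS group holds 1 of these arrays, and values without them are given beside the MS differences of both miRNAs.

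The blood cell miRNAs of the marker list were present: 8 of 8 were detected on all 24 arrays. They comprise miR-150 and miR-342-3p (lymphocytes), miR-223 (myeloid cells), miR-142-3p and miR-142-5p (leukocytes), miR-126 (platelets), and miR-451 and miR-144 (red cells). The red cell marker miR-451 reached log2 levels of 11.1 to 15.2 on the arrays outside MS, so erythroid RNA was present in these PBMC preparations. None of the defining markers was at the floor. The log2 of their summed level was 14.9 to 15.2 on the 4 MS arrays and 14.9 to 16.0 on the other 20.

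miR-146a was lowest in both MS groups and miR-146b was lowest in MS at 1 hour, but no difference of either miRNA was called in any of the 17 comparisons. For miR-146a 3 comparisons reached an unadjusted limma p under 0.05, and for miR-146b 4 did. Those of miR-146a were MS at 1 hour and at 34 days against CIA, and MS against PLA at 34 days. There 12.9%, 48.6% and 40% of all miRNAs tested reached it. Those of miR-146b were MS at 1 hour against CIA and PLA, and MTX at 34 days against CIA and PLA. There 12.9%, 9.52%, 7.14% and 2.38% of all miRNAs did. The SE of a difference between groups was 0.53 for miR-146a and 0.19 for miR-146b on the log2 scale. The within-group residual SD was 0.55 for miR-146a and 0.18 for miR-146b, against a median of 0.35 over the miRNAs tested. miR-146a thus varied more between replicates than most miRNAs, and miR-146b less.

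**Figure D1:**
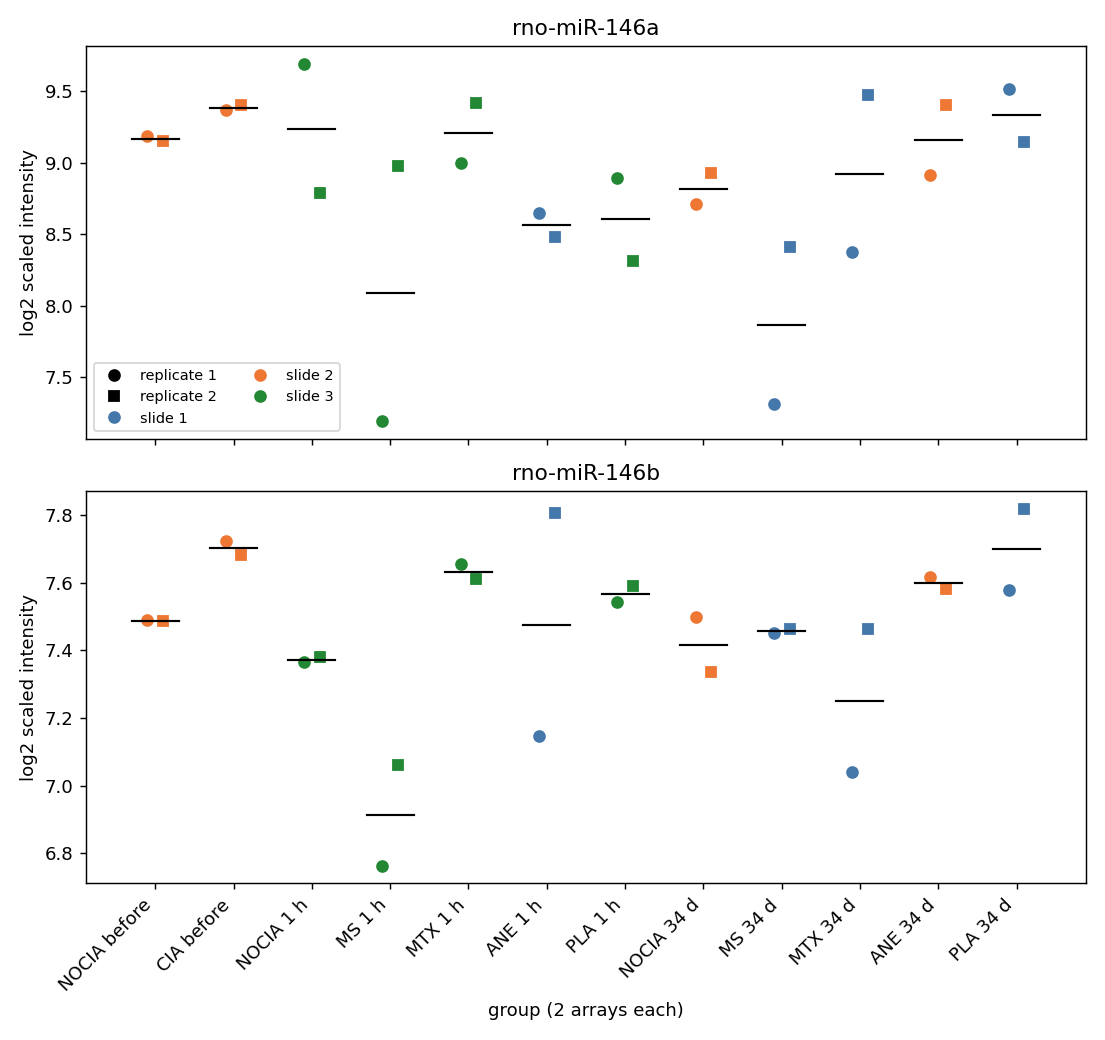
Log2 scaled intensity of rno-miR-146a (top) and rno-miR-146b (bottom) on every array, by group. Circles are replicate 1, squares replicate 2, colours the slide and bars the mean of 2 arrays; replicate 1 of both MS groups lies at 7.20 and 7.31 for miR-146a, below every other array.

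In arthritis before therapy, both miRNAs were slightly higher than in healthy animals. miR-146a stood at 9.37 and 9.41 in CIA and at 9.19 and 9.15 in NOCIA. miR-146b stood at 7.72 and 7.68 in CIA and at 7.49 and 7.49 in NOCIA. The groups did not overlap for either, and the replicates of each group lay close together. The log2 difference was 0.22 (SE 0.53, 95% interval -0.91 to 1.35, limma adjusted p = 0.980) for miR-146a and 0.21 (SE 0.19, interval -0.20 to 0.63, adjusted p = 0.938) for miR-146b. Groups that did not overlap in this direction were common, at 27.6% of all miRNAs tested, and 0.952% of the miRNAs tested were called. Both groups lay on 1 slide. With quantile normalisation the miR-146a difference was at 0 (-0.0022), while that of miR-146b stayed above 0 under all scalings run.

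Without therapy the healthy animals also set a scale for change over time. NOCIA at 1 hour had miR-146a at 9.69 and 8.79, on both sides of the NOCIA arrays before therapy, and miR-146b at 7.36 and 7.38. The log2 differences from NOCIA before therapy were 0.070 (adjusted p = 0.995) for miR-146a and -0.12 (adjusted p = 0.995) for miR-146b, where 2.38% of miRNAs were called. NOCIA at 34 days had miR-146a at 8.71 and 8.93 and miR-146b at 7.50 and 7.34. Its differences, within 1 slide, were -0.35 (interval -1.48 to 0.78) and -0.071 (interval -0.48 to 0.34), and 0.952% of miRNAs were called. The sign for miR-146a at 1 hour turned when scaled in other ways and when replicate 1 was left out (-0.38).

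At 1 hour of MS, both miRNAs were below CIA before therapy, most of all on replicate 1. miR-146a stood at 7.20 on replicate 1 and at 8.98 on replicate 2. The first value is the lowest of all 24 arrays for miR-146a, while the second lies among the other groups. miR-146b stood at 6.76 and 7.06, and only 1 array outside MS, replicate 1 of MTX at 34 days (7.04), fell between or below them. Both MS arrays were below both CIA arrays for each miRNA, as was true of 19.5% of all miRNAs tested. The log2 difference was -1.30 (SE 0.53, interval -2.43 to -0.16, limma adjusted p = 0.364) for miR-146a and -0.79 (SE 0.19, interval -1.20 to -0.38, adjusted p = 0.166) for miR-146b. In this comparison, which lies across slides, 0% of miRNAs were called, and 27 of 210 had an unadjusted limma p under 0.05. Without replicate 1 of MS the values were -0.40 and -0.64, and without replicate 2 they were -2.19 and -0.94. The size of the difference at 1 hour thus depended on which of the 2 arrays was kept.

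The saline arm at 1 hour, on the same slide as MS, was itself low for miR-146a. PLA stood at 8.90 and 8.31 for miR-146a and at 7.54 and 7.59 for miR-146b. MS minus PLA was -0.52 (interval -1.65 to 0.62, adjusted p = 0.824) for miR-146a, and the groups overlapped. For miR-146b it was -0.65 (interval -1.07 to -0.24, limma adjusted p = 0.185), with both MS arrays below both PLA arrays, as in 21.4% of all miRNAs. Only 0.952% of miRNAs were called. The median over all miRNAs tested was -0.22 in this comparison, so relative to it miR-146b was at -0.43. Without replicate 1 of MS the miR-146a difference turned to 0.38, and that of miR-146b was -0.51.

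The other arms at 1 hour lay nearer to CIA. For miR-146a, MTX stood at 9.0 and 9.42 and ANE at 8.65 and 8.48. For miR-146b, MTX stood at 7.66 and 7.61 and ANE at 7.15 and 7.81, a wide spread. Relative to CIA before therapy, miR-146a differed by -0.18 in MTX (interval -1.31 to 0.96), by -0.82 in ANE (interval -1.95 to 0.31) and by -0.78 in PLA (interval -1.91 to 0.35). miR-146b differed by -0.069, -0.23 and -0.13 in the same arms, each with an adjusted p above 0.4 (1, 0.462 and 0.723). The share of miRNAs called was 1.43% in MTX, 0.476% in ANE and 0.952% in PLA. MTX minus PLA at 1 hour, within 1 slide, was 0.60 (interval -0.53 to 1.74) for miR-146a and 0.066 (interval -0.35 to 0.48) for miR-146b, with 0% called.

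**Figure D2:**
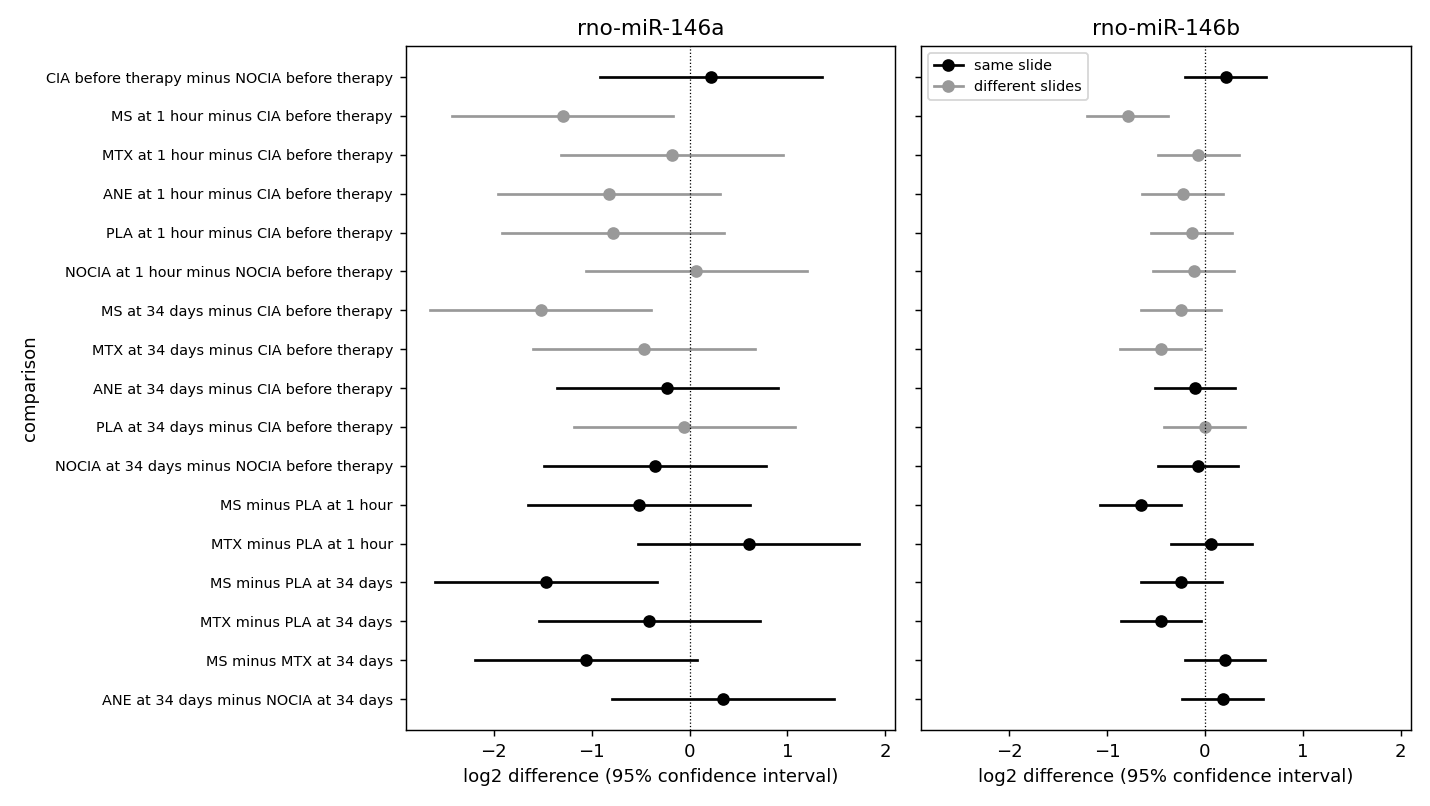
Log2 difference of rno-miR-146a (left) and rno-miR-146b (right) in each of the 17 comparisons, with 95% confidence intervals from limma. Black marks comparisons within 1 slide and grey those across slides. The miR-146a intervals of MS against CIA at 1 hour and 34 days, and against PLA at 34 days, lie below 0 before adjustment. In these 3 comparisons 12.9%, 48.6% and 40% of all miRNAs tested had an unadjusted limma p under 0.05. The miR-146b intervals of MS at 1 hour and of MTX at 34 days, each against CIA and PLA, also lie below 0. For MS 12.9% and 9.52% of all miRNAs tested reached that p, and for MTX 7.14% and 2.38%.

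After 34 days of MS, miR-146a was lower than before therapy and lower than in PLA at the same time, and miR-146b was lower by less. miR-146a stood at 7.31 and 8.42, against 9.37 and 9.41 in CIA before therapy and 9.52 and 9.15 in PLA at 34 days. Both MS arrays were below all 4 of those arrays, and replicate 1 was lower than replicate 2 by more than 1 log2 unit. The log2 difference from CIA was -1.52 (SE 0.53, interval -2.65 to -0.39, limma adjusted p = 0.0526), which is just short of a call. MS at 34 days and CIA lie on different slides, so slide and group cannot be told apart in it. This comparison had 19.0% of all miRNAs called, and 25.2% of all miRNAs were lower without overlap, so a value near the threshold was common here. MS minus PLA at 34 days, within 1 slide, was -1.47 (SE 0.53, interval -2.60 to -0.34, limma adjusted p = 0.0701). There 0% of miRNAs were called at the adjusted threshold, and 27.6% were lower without overlap. From the lowest difference upward, miR-146a ranked 15 of 210 against CIA and 12 of 210 against PLA.

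The difference of miR-146a at 34 days did not rest on 1 probe. The probes gave -1.45 and -1.56 against CIA and -1.41 and -1.50 against PLA. It did rest in part on replicate 1, the brightest array of all. Without replicate 1 it was -0.97 against CIA and -0.92 against PLA. Without replicate 2 it was -2.07 and -2.02. With both brightest MS arrays left out of the fit it was -0.97 against CIA and -0.92 against PLA. Each of these fits leaves 1 MS array at 34 days, so no p is given. The study's methods set a threshold of a more than 2-fold difference and an unadjusted p below 0.05 in detected miRNAs. On the levels as scaled and fitted here, not the study's own summarised values, miR-146a passed this threshold in MS at 1 hour and at 34 days against CIA. It also passed in MS against PLA at 34 days. The shares of all miRNAs that passed it were 3.33%, 17.6% and 14.8%.

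miR-146b at 34 days of MS stood at 7.45 and 7.46, the closest pair after NOCIA before therapy. Its difference was -0.24 from CIA (SE 0.19, interval -0.66 to 0.17, adjusted p = 0.327) and -0.24 from PLA at 34 days (interval -0.65 to 0.17, adjusted p = 0.332). PLA itself stood at 7.58 and 7.82. Both MS arrays were below both CIA arrays and both PLA arrays, with 25.2% and 27.6% of all miRNAs in that position. Without both brightest arrays these differences were also -0.24 and -0.24. On this scaling both intervals stay well short of a log2 difference of -1.

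After 34 days of methotrexate the means of both miRNAs were below those of CIA and PLA by similar amounts, and no difference was called. miR-146b stood at 7.04 and 7.46 in MTX, and both were below both CIA arrays and both PLA arrays, with 16.7% and 17.6% of all miRNAs in that position. The miR-146b differences were -0.45 from CIA (interval -0.86 to -0.039, limma adjusted p = 0.658) and -0.45 from PLA (interval -0.86 to -0.036, adjusted p = 0.922). miR-146a stood at 8.37 and 9.47 in MTX and overlapped both. Its differences were -0.46 (interval -1.60 to 0.67) from CIA and -0.41 (interval -1.54 to 0.72) from PLA. In each of these comparisons 0% of miRNAs were called. MS minus MTX at 34 days was -1.06 for miR-146a (interval -2.19 to 0.074, adjusted p = 0.309) and 0.21 for miR-146b (interval -0.21 to 0.62, adjusted p = 0.541), again with 0% called and with overlap for both. Leaving out the bright MS array or replicate 2 of MTX moved the miR-146a difference to -0.51, and leaving out the other array of either group moved it to -1.61. That of miR-146b was 0.21 without the bright MS array and turned to -0.0055 without replicate 1 of MTX.

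In the arms without active therapy both miRNAs were close to CIA before therapy at 34 days. ANE stood at 8.92 and 9.40 for miR-146a and at 7.62 and 7.58 for miR-146b. ANE minus CIA, within 1 slide, was -0.23 (interval -1.36 to 0.91) and -0.10 (interval -0.51 to 0.31). PLA minus CIA was -0.053 (interval -1.18 to 1.08) for miR-146a and -0.0027 (interval -0.42 to 0.41) for miR-146b. ANE minus NOCIA at 34 days, within 1 slide, was 0.34 (interval -0.79 to 1.47) and 0.18 (interval -0.23 to 0.59). In all 3 comparisons 0% of miRNAs were called. For miR-146b these intervals bound a change at less than 0.6 log2 units in either direction, while for miR-146a each leaves room for a change of 1 log2 unit in at least 1 direction.

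Ordered by mean level, miR-146a ran from CIA before therapy (9.39), PLA at 34 days (9.33), NOCIA at 1 hour (9.24), MTX at 1 hour (9.21), NOCIA before therapy (9.17) and ANE at 34 days (9.16) down to MTX at 34 days (8.92), NOCIA at 34 days (8.82), PLA at 1 hour (8.61) and ANE at 1 hour (8.57). MS at 1 hour (8.09 ± 1.26, SD, n = 2) and MS at 34 days (7.86 ± 0.78, SD, n = 2) were last. No neighbours in that order differed by more than the larger of their SDs. miR-146b began with CIA before therapy (7.70) and PLA at 34 days (7.70) and ended with MTX at 34 days (7.25 ± 0.30, SD, n = 2) and MS at 1 hour (6.91 ± 0.21, SD, n = 2). Its other groups lay between 7.37 and 7.63. The gap between the last 2 (0.34) exceeded the larger SD, as did those between MTX at 1 hour and ANE at 34 days (0.034) and between PLA at 1 hour and NOCIA before therapy (0.080), where the replicates happened to lie very close.

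Within an array, the difference between the 2 miRNAs is the same under every scaling that multiplies an array by 1 factor. Quantile normalisation changes it: the differences between MS at 34 days and CIA were then -1.36 for miR-146a and -0.47 for miR-146b. It is a description with no test, and shows unequal change of the pair rather than which of them changed. miR-146a minus miR-146b on the log2 scale was 1.65 and 1.72 in CIA before therapy and 1.70 and 1.66 in NOCIA before therapy, so arthritis and health could not be told apart by it. In PLA at 34 days it was 1.94 and 1.33, and in MTX at 34 days 1.33 and 2.01. In MS at 34 days it was -0.14 and 0.95, and in MS at 1 hour 0.43 and 1.92. Over the 20 arrays outside MS it ran from 0.68 through a median of 1.55 to 2.33. Replicate 1 of both MS groups lay below that range and replicate 2 of both lay within it. The low end of that range was held by replicate 2 of ANE (0.68) and of PLA (0.72) at 1 hour.

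**Figure D3:**
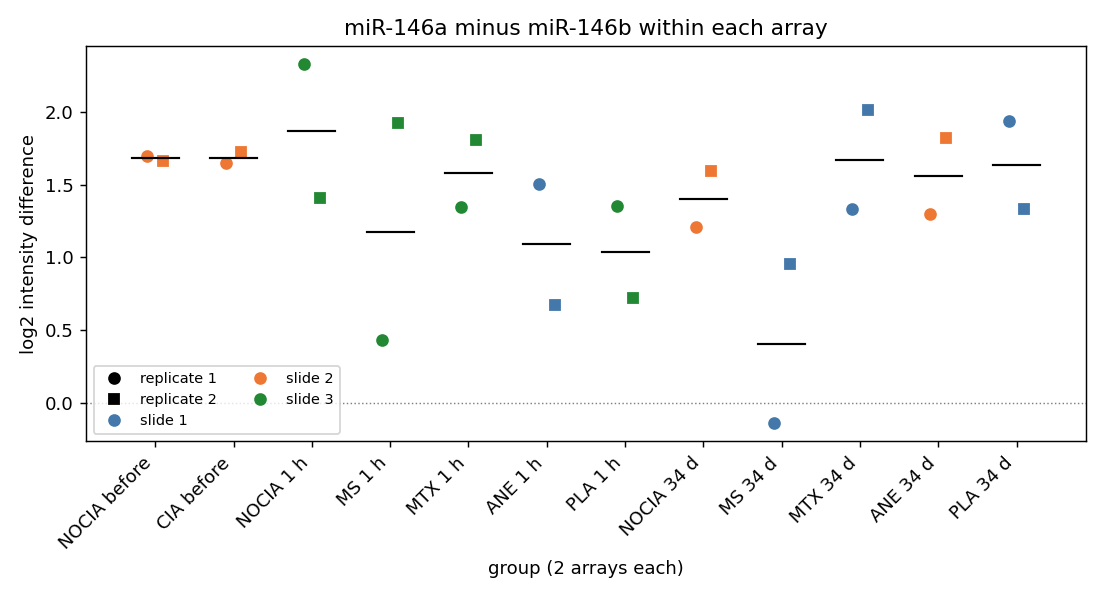
Difference between the log2 intensities of rno-miR-146a and rno-miR-146b within each array, by group; circles are replicate 1, squares replicate 2, colours the slide and bars the mean of 2 arrays. The lowest value, -0.14, is replicate 1 of MS at 34 days, and the CIA and NOCIA arrays before therapy lie between 1.65 and 1.72.

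Before scaling, the picture of the pair was different. Unscaled intensity of miR-146a was 349 and 494 in MS at 34 days, against 482 and 565 in CIA before therapy and 661 and 471 in PLA at 34 days. Unscaled miR-146b was 384 and 255 in MS at 34 days, above the 154 and 171 of CIA and the 173 and 187 of PLA. On the 2 brightest arrays raw miR-146a was low, at 325 (MS at 1 hour) and 349 (MS at 34 days), in a range of 325 to 661 over all arrays. Raw miR-146b was higher on the bright arrays. Without any scaling the log2 difference between MS at 34 days and CIA was -0.33 (adjusted p = 0.389) for miR-146a and 0.95 (adjusted p = 0.0278) for miR-146b. In that setting 132 of 210 miRNAs were called, and the median over all miRNAs tested moved to 1.32, from 0.16 with scaling. Relative to those medians, miR-146a was at -1.65 without scaling and at -1.69 with it, and miR-146b at -0.37 and -0.41. Which of the pair stood apart from CIA thus depended on the scaling, while both lay below the median of all miRNAs in this comparison under each of the 6 scalings and tables run.

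Levels of the pair were set against array brightness and against each other in 5 relations over the 24 arrays, given as descriptions with no p, since arrays of a group share their treatment and slide. Unscaled miR-146b was higher on arrays with a higher summed intensity (on log2 scales Pearson's r = 0.886, Spearman's rho = 0.858). Within the slides r was 0.887, 0.920 and 0.812 (8 arrays each), and without the 2 brightest arrays 0.810. For unscaled miR-146a r was -0.363 and rho -0.205, and without the 2 brightest arrays r was -0.00042. Its r within slides was -0.63, 0.56 and -0.70. Scaled miR-146a ran opposite to the summed intensity (r = -0.877, rho = -0.810), without the 2 brightest arrays at -0.754 and within slides at -0.943, -0.595 and -0.961. For scaled miR-146b r was -0.358 and rho -0.277, with r at -0.195 without the 2 brightest arrays and at -0.22, -0.16 and -0.65 within slides. The scale factor falls as an array gets brighter, so a scaled level and the summed intensity share a term. The part that total RNA or labelling had in the miR-146a differences was not tested.

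**Figure D4:**
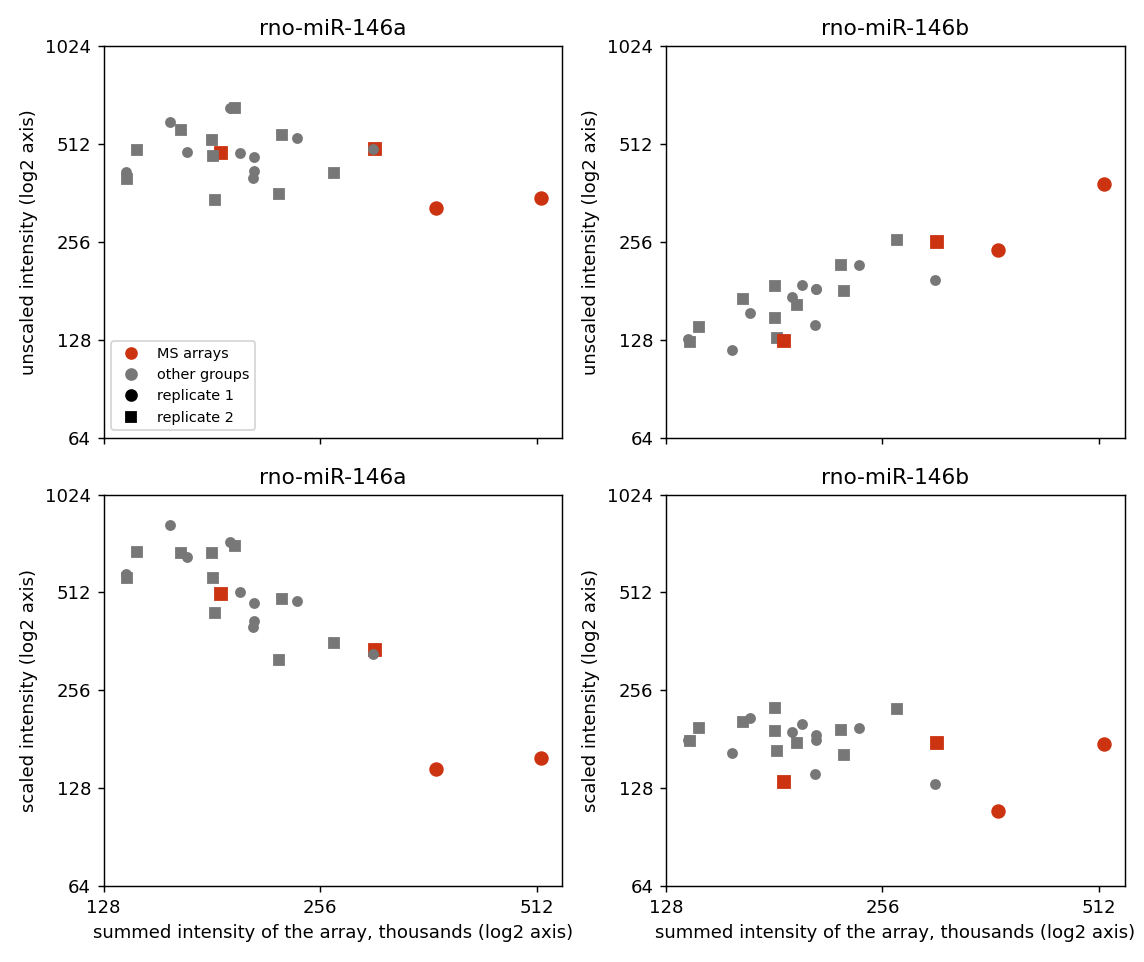
Unscaled (top) and scaled (bottom) intensity of rno-miR-146a (left) and rno-miR-146b (right) against the summed intensity of the detected miRNAs on each of 24 arrays, all on log2 axes. MS arrays are red; unscaled miR-146b climbs with array brightness (r = 0.886), and scaled miR-146a goes down with it (r = -0.877).

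The 2 members followed each other only loosely. Over 24 arrays the scaled levels had r = 0.480 and rho = 0.315. Without the 2 brightest arrays r was 0.252. Within slides r was 0.25, 0.58 and 0.62, the second of these on the slide that holds neither bright array. Among 131 other miRNAs detected on all arrays, miR-146b ranked 38 by likeness to miR-146a.

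The miRNAs most like miR-146a over the 24 arrays were miR-150 (r = 0.924), miR-1949 (r = 0.915), miR-342-5p (r = 0.899), miR-342-3p (r = 0.897) and miR-7a (r = 0.892). miR-150 and miR-342-3p are abundant in lymphocytes, and miR-342-5p is the other strand of the miR-342 hairpin. Without the 2 brightest arrays these r were 0.812, 0.828, 0.762, 0.786 and 0.706. The arrays share their scaling, and the points include replicates of the same group, so no p is given. miR-150 stood at 9.55 and 12.4 in MS at 34 days, at 10.3 and 13.3 in MS at 1 hour and at 11.6 to 13.5 on the other 20 arrays, so it had the same 2 low arrays as miR-146a. miR-146b was most like miR-221 (r = 0.797), miR-1224 (0.722), miR-378 (0.696), miR-15b (0.676) and miR-188 (0.670), with 0.756, 0.737, 0.574, 0.497 and 0.615 without the 2 brightest arrays. None of the 5 is shared between the members.

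**Figure D5:**
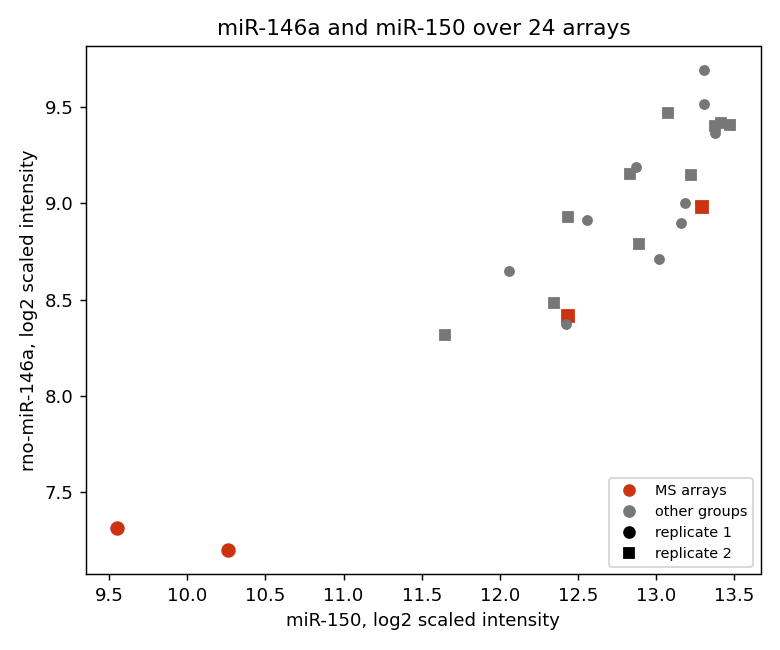
Log2 scaled level of rno-miR-146a against that of miR-150, a lymphocyte miRNA, on 24 arrays, with MS arrays in red, circles for replicate 1 and squares for replicate 2. Over all arrays r = 0.924, and without the 2 arrays at the lower left it is 0.812.

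The blood cell markers are given here for MS at 34 days against CIA before therapy, beside the miR-146a difference of -1.52. These 2 groups lie on different slides. The lymphocyte miRNAs miR-150 and miR-342-3p differed by -2.43 (SE 0.89, limma adjusted p = 0.0549) and -1.29 (SE 0.48, adjusted p = 0.0549). The myeloid miRNA miR-223 rose by 0.89 (SE 0.25, adjusted p = 0.0383), and the platelet miRNA miR-126 differed by 1.17 (SE 0.47, adjusted p = 0.0663). The leukocyte miRNAs miR-142-3p and miR-142-5p differed by 0.12 and -0.19, and the red cell miRNAs miR-451 and miR-144 by -0.79 and 0.23, with wide errors (SE 0.94 and 0.95). Of the 8 markers, 1 passed the test, where 19.0% of all miRNAs did. Without both brightest arrays miR-150 was at -0.99 and miR-223 at 0.65. Against PLA at 34 days 0 of the 8 passed, where 0% of all miRNAs did. There miR-150 differed by -2.27 (adjusted p = 0.0832), miR-342-3p by -0.94 (adjusted p = 0.143), miR-126 by 1.29 (adjusted p = 0.0701) and miR-223 by 0.41 (adjusted p = 0.220). miR-451, miR-144, miR-142-5p and miR-142-3p differed by -1.54, -1.01, -0.40 and 0.030, with adjusted p of 0.220, 0.427, 0.451 and 0.944. In these bulk samples, fewer cells of a type and less of a miRNA per cell cannot be told apart. The part of cell composition in the miR-146a values was not tested.

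Other miRNAs linked to NF-kB gave a mixed picture. The list held 14 names, of which 13 are on the array (miR-155, induced along with miR-146a, has no entry under that name). Of the 13, 8 could be tested. miR-9, miR-147 and miR-199a-5p were detected on 0 arrays, and miR-132 and miR-31 on 2. In MS at 34 days against CIA before therapy, which lie on different slides, 3 of the 8 were called higher and 0 were called lower. Beside them 19.0% of all miRNAs were called. Without both brightest arrays 0 of the 8 were called, as were 0 of all 210, and the list median was 0.017. The 3 called with all arrays were miR-223 (0.89, limma adjusted p = 0.0383), miR-301a (1.28, SE 0.40, adjusted p = 0.0407) and miR-125a-5p (1.46, SE 0.43, adjusted p = 0.0405). miR-223 restrains inflammasome and NF-kB signalling in myeloid cells, and miR-301a promotes NF-kB activity. The median of the 8 was -0.20, against 0.16 over all miRNAs tested. miR-21, another NF-kB-induced miRNA, differed by 0.0058 (SE 0.28), and miR-125b-5p by -0.62 (SE 0.48, limma adjusted p = 0.314). The rest of the 8 were also lower than in CIA. miR-15b differed by -0.41 (adjusted p = 0.0802) and miR-16 by -0.41 (adjusted p = 0.171). miR-181b stood at 6.58 and 6.68 in MS, against 7.07 and 7.49 in CIA. In each of the other 16 comparisons 0 of the 8 were called by limma. At an unadjusted limma p under 0.05 there were up to 4 of 8, the most in MS at 1 hour against CIA. There 12.9% of all miRNAs reached it, the list median was -0.38 and that of all miRNAs 0. In MS at 34 days against CIA 5 of 8 reached it, as did 48.6% of all miRNAs.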

How the data were processed

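The 24 PBMC samples (12 groups of 2) were each hybridised to a one-colour Agilent array of rat miRNAs. Per the labels, cells were isolated on Ficoll and RNA was extracted in a single batch and labelled with Cy3. The submitters' processing notes list Agilent Feature Extraction 10.7 and RMA. The deposited scanner files hold linear intensity values, background-corrected and not normalised between arrays, with a detection flag for each miRNA. All 12046 values of undetected miRNAs equalled their listed error. The authors' log2 table of the same arrays was used only as an alternative, and the sources used here name the AgiMicroRna package and RMA for it without giving further settings. The study tested miRNAs with limma.

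Total intensities were scaled to the 75th percentile of the 132 miRNAs detected on all arrays (factors 0.452 to 1.42), floored at 5.76 (2.53 on the log2 scale) and log2-transformed. limma 3.58.1 in R 4.3.3 fitted 12 group means to the 210 miRNAs detected on at least 3 arrays (12 residual degrees of freedom, two-sided tests). Benjamini-Hochberg adjustment was made over the 210. With 2 arrays against 2, an exact permutation test cannot go below p = 0.333, so only limma's test is given for differences. Nothing in the labels names separate litters or cages. The SE and p of a difference rest on the within-group spread pooled over all 12 groups, not on the 2 groups compared alone. For miR-146a the SD of a group ran from 0.026 (NOCIA before therapy) to 1.26 (MS at 1 hour). The number of arrays limits precision.

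Correlations over arrays are given without a p. The fit was tested on simulated data. Sequences came from RefSeq (GRCr8), and the array files name build rn4, whose coordinates were not used. The members, the NF-kB list and the blood cell list were chosen with earlier results of these data known. Both members were named in every comparison, list miRNAs where they passed the test or as markers, and likeness was ranked by Pearson's r. miR-21, miR-125b-5p, miR-15b, miR-16 and miR-181b were named after their values were seen. Alternatives were other scalings, normexp on the spot medians, the authors' table, filters, a floor of 1, a fit of only the arrays compared, array weights, the replicate number as a block, the methods' threshold and leaving out arrays. Leaving out both brightest arrays together was chosen after the data were seen.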

Additional observations from a re-analysis of the deposited data

How the results depend on the processing

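The limits lie in 2 arrays per group, in a scaling that moves every level of bright arrays, and in slides that cannot be separated from groups in 8 of the 17 comparisons. In 29 cases a difference changed sign under another setting and in 10 it passed the threshold; 379 values kept their direction and side. The causes were not tested, except where the setting itself (fewer or more miRNAs tested, fewer arrays, another threshold) is the change.

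Without scaling, miR-146b relative to CIA before therapy was at 0.10 for MS, 0.0021 for MTX, 0.24 for ANE and 0.30 for PLA at 1 hour. At 34 days it was at 0.95 for MS (limma adjusted p = 0.0278), where 132 of 210 miRNAs were called. It was at 0.14 for MTX, 0.15 for ANE and 0.15 for PLA at 34 days. miR-146a was then at 0.13 for MTX, 0.026 for ANE and 0.10 for PLA. NOCIA at 34 days against before was at 0.23 for miR-146a and 0.51 for miR-146b. For miR-146b, MTX minus PLA at 1 hour was -0.29, MS minus PLA at 34 days 0.80 and ANE minus NOCIA at 34 days -0.013, and for miR-146a MTX minus PLA at 34 days was 0.032. With the 75th percentile over all miRNAs, miR-146a was at -0.34 in NOCIA at 1 hour and at 0.31 in MS minus PLA at 1 hour. miR-146b was at 0.17 in that comparison, 0.032 in PLA at 34 days minus CIA, 0.20 in NOCIA at 34 days and -0.14 in ANE minus NOCIA. Quantile normalisation gave miR-146a at -0.0022 in CIA minus NOCIA, -0.24 in NOCIA at 1 hour and 0.016 in PLA at 34 days minus CIA. In NOCIA at 1 hour miR-146a was at -0.025 with normexp and at -0.044 in the authors' table.

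The miR-146a difference between MS at 34 days and CIA passed with normexp (-1.10, adjusted p = 0.0387), in the authors' table (-1.59, adjusted p = 0.0382) and over only the 132 miRNAs detected on all arrays (-1.52, adjusted p = 0.0358), and its adjusted p over these settings ran from 0.0358 to 0.389. Against PLA at 34 days it passed with no filter (-1.47, adjusted p = 0.0308) and over the 132 miRNAs (-1.47, adjusted p = 0.0493), with a range to 0.260. With no filter miR-146b in MTX minus PLA at 34 days passed (-0.45, adjusted p just under 0.05, range to 1). Other miRNAs passed in these settings too. In MS at 34 days minus CIA, 73 of 210 were called with normexp and 70 of 210 with the authors' values. Of the 132 miRNAs, 65 were called there. In MS minus PLA at 34 days, 412 of 677 were called with no filter and 36 of the 132. In MTX minus PLA at 34 days, 338 of 677 were called with no filter. That fit included 432 miRNAs detected on no array. By the methods' threshold, on the levels as scaled here, miR-146a passed at -1.30 (MS at 1 hour), -1.52 (MS at 34 days) and -1.47 (against PLA). Without both brightest arrays miR-146a in MS minus PLA at 1 hour was at 0.38.

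Leaving out each array in turn gave miR-146a in MS minus CIA from -2.19 to -0.40 at 1 hour and from -2.07 to -0.97 at 34 days, in MS minus PLA from -1.41 to 0.38 and from -2.02 to -0.92, and in MS minus MTX from -1.61 to -0.51. It gave miR-146b in MS minus CIA at 1 hour from -0.94 to -0.64. Signs also turned without 1 array of the therapy or NOCIA group (replicate 1, except replicate 2 where marked) for miR-146a in NOCIA at 1 hour (-0.38 to 0.52), MTX at 1 hour (-0.38 to 0.030), MTX at 34 days (-1.01 to 0.085), ANE at 34 days (-0.47 to 0.017), PLA at 34 days (replicate 2, -0.24 to 0.13) and MTX minus PLA at 34 days (replicate 1 of MTX, -0.96 to 0.14). For miR-146b they turned in ANE at 1 hour (-0.56 to 0.10), NOCIA at 34 days (replicate 2, -0.15 to 0.010), PLA at 34 days (also without replicate 1 of CIA, -0.12 to 0.12) and MS minus MTX at 34 days (replicate 1 of MTX, -0.0055 to 0.42). In a fit that lacks an array, the lone partner is assumed to vary like the other groups.

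With the replicate number as a block, miR-146a in MS at 34 days minus CIA was -1.52 (adjusted p = 0.0452) and 61 miRNAs were called in place of 40; no other call on the 2 miRNAs changed. Whether replicate numbers pair the samples was not settled. Deviations of 66 pairs of groups correlated over 0.1 in 26, with r from -0.77 to 0.84 and a median r of -0.03.

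Counts over all miRNAs moved too. MS at 34 days minus CIA had 132 calls without scaling, 73 with normexp, 70 in the authors' table, 65 among the 132 miRNAs, and 0 with either other scaling, no filter, array weights or only the arrays compared. It had 0 without replicate 1 of MS, 103 without replicate 2 of MS, 1 without replicate 1 of CIA and 0 without replicate 2 of CIA. MS minus PLA at 34 days, with 0 in the fit reported, had 124 without scaling, 91 without replicate 2 of MS, 36 among the 132 miRNAs and 412 of 677 with no filter. With no filter the counts were also 371 (CIA minus NOCIA), 372 and 366 (NOCIA at 1 hour and 34 days) and 338 (MTX minus PLA at 34 days), over a table in which 432 miRNAs are detected on no array. MS at 1 hour minus CIA, with 0 in the fit reported, had 34 without replicate 2 of MS. The highest count of the other 10 comparisons under any of these settings was 9.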
